A study of Caenorhabditis elegans with 6 samples.

Results

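The 10 small heat shock protein genes described here are hsp-16.1, hsp-16.11, hsp-16.2, hsp-16.41, hsp-16.48, hsp-16.49, hsp-12.3, hsp-12.6, hsp-17 and sip-1 of the nematode Caenorhabditis elegans. They were chosen by gene name from the 46950 rows of the deposited table, where each name was found once. The data are polyadenylated RNA from whole worms, in 3 Control libraries and 3 libraries of worms treated with terahertz radiation (THz), at the 0.26 THz named in the series title. The sources used here state no strain, stage, power density, exposure time, temperature or time of harvest, and the series has no group of heated worms. Separate cultures for the replicates are not stated either, so the p-values cover the spread among these 6 libraries and that spread may be technical. Values are FPKM, which are reads scaled to the length of the gene and the depth of the library, and the whole reads behind them were recovered from the table.

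Small heat shock proteins hold unfolding proteins in a soluble state through a shared alpha-crystallin domain until larger chaperones refold them. In C. elegans the hsp-16 genes are nearly silent in unstressed worms, and heat shock factor HSF-1 switches them on strongly and within minutes when the temperature rises. Reporters of hsp-16 promoters have therefore long served as a sign of heating or protein damage in worms exposed to electromagnetic fields. Not all of the other members follow this pattern, and the set holds both heat-inducible genes and genes used in development.

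None of the genes with enough reads for a test was called higher in THz worms. The heat-inducible genes with enough reads, hsp-16.2 and hsp-16.41, had lower means in THz than in Control worms. The groups of hsp-16.41 overlapped, and Control 2 was the highest library for both genes. Without Control 2 their log2 differences of -0.89 and -0.65 became -0.52 and -0.26. Of the 10 genes, 6 passed the filter of at least 1 FPKM in at least 3 libraries and were tested with limma. An adjusted p under 0.05 was reached by 0 of these 6, against 0.0% of the 12174 genes tested. At an unadjusted p under 0.05 there were 3 of the 6, all lower in THz, where 4.01% of all genes tested were lower and 1.86% higher at that level. With weights estimated for each library, an alternative that called 25.4% of all genes, 11.7% as lower and 13.7% as higher, 3 of the 6 were called lower, which were hsp-12.3, hsp-16.2 and hsp-17, and none higher. That fit rested mostly on Control 1 (weight 4.29, against 0.180 and 0.293 for Control 2 and 3) and THz 3 (3.59). Without Control 2, 0 of the 6 were called, where 1.98% of 11963 genes were called, 225 lower and 12 higher. The median log2 difference of the 6 was -0.51, against 0.00 for all genes tested, with 5 of 6 below 0 against 49.5% of all genes. Some of the 6, such as hsp-16.2, hsp-16.41 and hsp-17, varied together over the libraries, so their counts are not separate results.

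**Figure D1:**
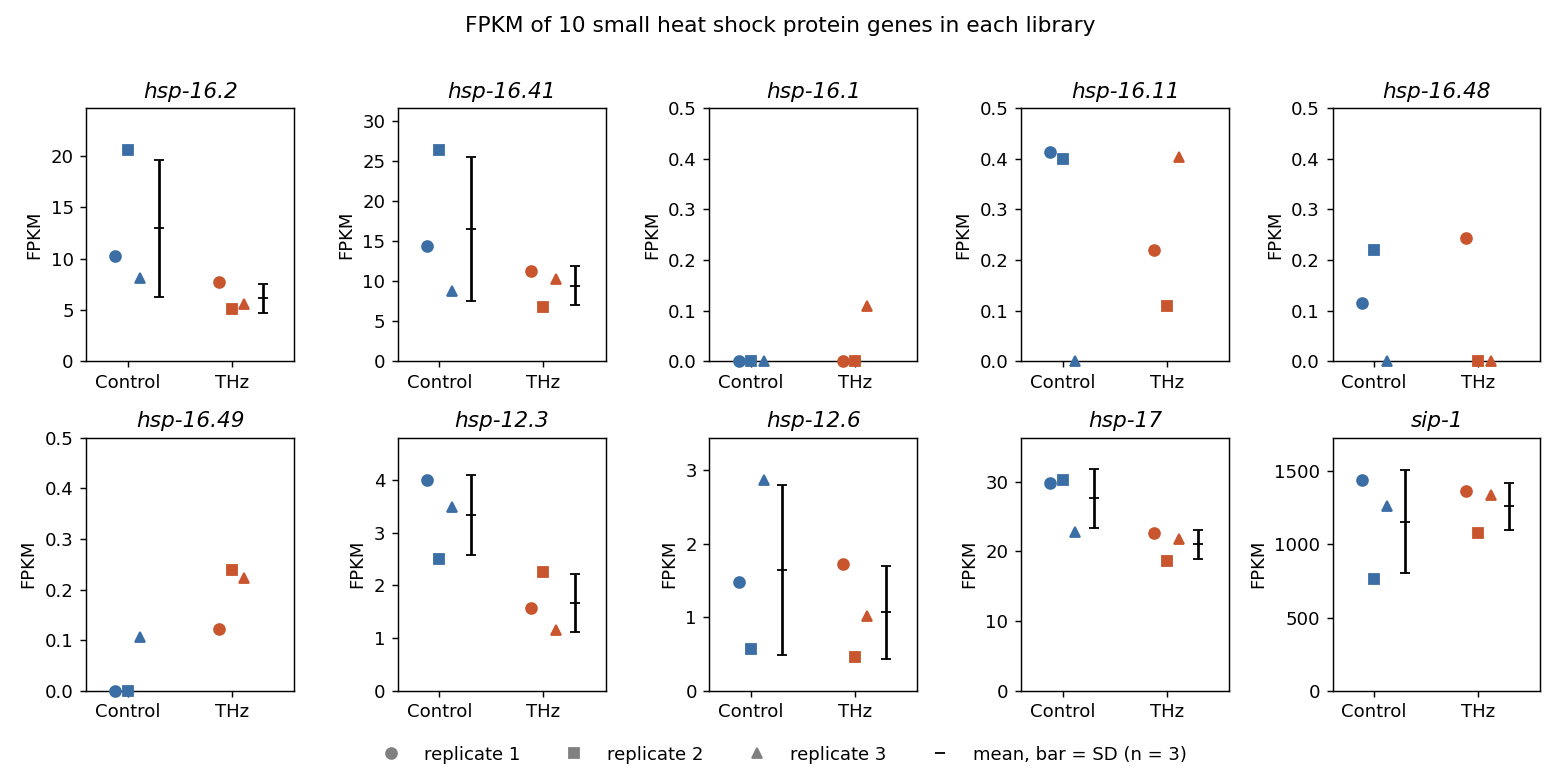
FPKM of each of the 10 genes (vertical axes start at 0 and differ between panels) in the 3 Control and 3 THz libraries, with the mean and SD beside the points for the 6 genes that passed the filter. The hsp-16.2 and hsp-16.41 panels show Control 2 at 20.5 and 26.3 FPKM, above every other library, and the sip-1 panel shows the same library lowest.

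The hsp-16 genes lie at 2 places on chromosome V of build WBcel235. At the first, hsp-16.2 (WBGene00002016, 1804334 to 1804971, minus strand) and hsp-16.41 (WBGene00002018, 1805178 to 1805875, plus strand) point away from each other across a gap of 206 bases. At the second, hsp-16.1 (WBGene00002015, 9087293 to 9087782, minus strand), hsp-16.48 (WBGene00002019, 9088131 to 9088617, plus strand), hsp-16.49 (WBGene00002020, 9089280 to 9089766, minus strand) and hsp-16.11 (WBGene00002017, 9090077 to 9090604, plus strand) form another 2 such divergent pairs within 3312 bases. Each hsp-16 gene has 2 exons in the Ensembl annotation, which gives no 3′ untranslated region for the 4 genes of the second place. The table describes hsp-16.1 and hsp-16.11 by 1 shared protein name, and hsp-16.48 and hsp-16.49 by another, because each pair encodes the same protein from near-identical copies. How reads that map to both copies were counted is not given in the sources used here, so the values of these 4 genes are uncertain.

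**Figure D2:**
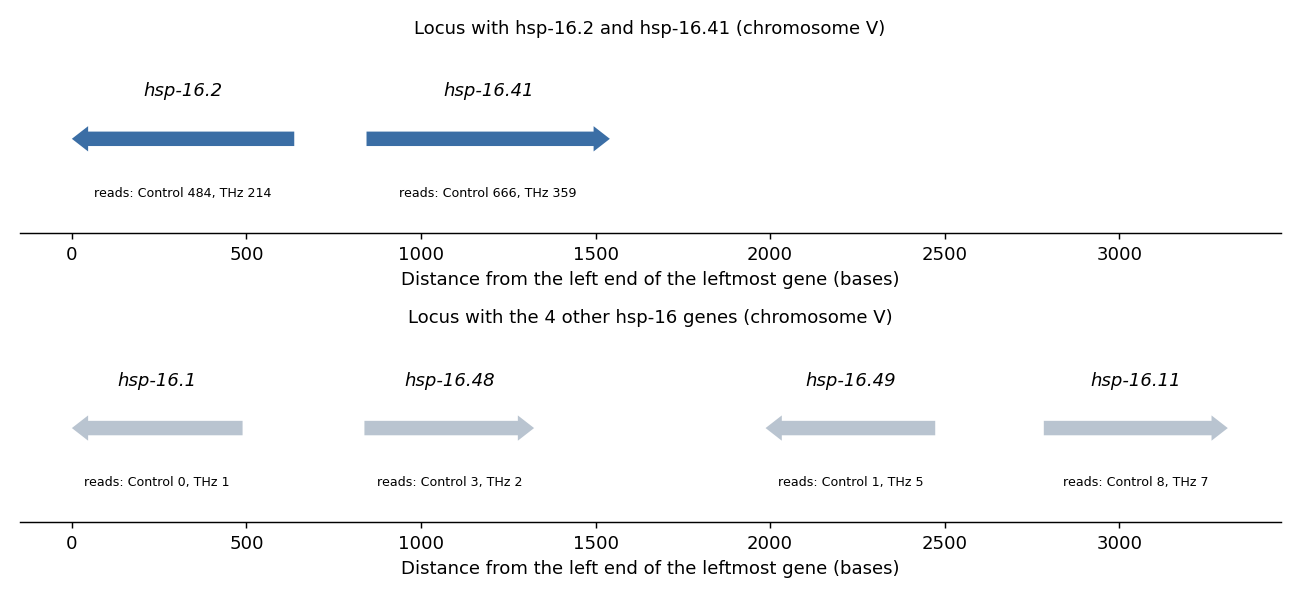
Arrangement of the 6 hsp-16 genes at their 2 places, drawn as arrows in the direction of transcription against distance in bases, with the recovered reads summed over the 3 libraries of each group. In the Control libraries hsp-16.2 had 484 and hsp-16.41 had 666 reads, against at most 8 in a group for any of the other 4.

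HSP-16.2 is the small heat shock protein most used as a stress reporter. Its gene measured 10.2, 20.5 and 8.07 FPKM in Control 1, 2 and 3 (123, 256 and 105 reads). It measured 7.70, 5.13 and 5.53 FPKM in THz 1, 2 and 3 (87, 59 and 68 reads). All 3 THz libraries lay below all 3 Control libraries, with a small margin between THz 1 and Control 3, and 7.33% of all genes tested showed that arrangement. The Control mean was 12.9 ± 6.66 FPKM and the THz mean 6.12 ± 1.39 FPKM (SD, 3 libraries each), so the Control mean was 2.12-fold higher. With limma the difference was -0.89 ± 0.32 on the log2(FPKM + 1) scale (SE), with a 95% interval from -1.64 to -0.13 and an adjusted p of 0.827. Without Control 2, the highest library, the difference was -0.52 (limma adjusted p = 0.233). Without Control 3, the lowest Control library, it was -1.14 (limma adjusted p = 0.336).

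Its divergent neighbour hsp-16.41 encodes a protein of the same family. It measured 14.4, 26.3 and 8.82 FPKM in the Control libraries (187, 355 and 124 reads) and 11.3, 6.75 and 10.3 FPKM in the THz libraries (138, 84 and 137 reads). The groups overlapped, since Control 3 lay below THz 1 and THz 3. The means were 16.52 ± 8.96 and 9.45 ± 2.39 FPKM (SD, n = 3 each), with a limma difference of -0.65 ± 0.36 on the log2 scale (SE) and an adjusted p of 0.827. The 95% interval of that difference ran from -1.50 to 0.20. Without Control 2 the difference was -0.26 (limma adjusted p = 0.615). Per length, hsp-16.41 was above hsp-16.2 in all 6 libraries, by a factor from 1.09 in Control 3 to 1.86 in THz 3.

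The 4 copies at the second place had almost no counted reads. For hsp-16.1 the only read was 1 in THz 3. A count of 0 allows up to 0.312 to 0.359 FPKM, depending on the library, with counting error alone. For hsp-16.11 there were 4, 4 and 0 reads in Control 1, 2 and 3 and 2, 1 and 4 in THz 1, 2 and 3. For hsp-16.48 the reads were 1, 2 and 0 in Control and 2, 0 and 0 in THz libraries, and for hsp-16.49 they were 0, 0 and 1 in Control and 1, 2 and 2 in THz libraries. No library held more than 4 reads of any of these genes. In FPKM all 3 THz libraries of hsp-16.49 lay above the Control libraries, but Control 3 at 0.105 FPKM and THz 1 at 0.121 FPKM rest on 1 read each, and with no filter limma gave an unadjusted p of 0.037 and an adjusted p of 0.829. Of the genes tested with the filter, which do not include hsp-16.49, 6.44% had all THz libraries above the Control libraries. Together the 4 genes held 12 reads in the Control and 15 in the THz libraries.

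The sum of FPKM over the 6 hsp-16 genes was 25.1, 47.5 and 16.99 in the Control libraries and 19.6, 12.22 and 16.6 in the THz libraries. The 4 copies added only 0.105 to 0.737 FPKM to a sum, which therefore repeats hsp-16.2 and hsp-16.41. The groups overlapped, with THz 1 above Control 3. The Control mean was 1.85-fold higher than the THz mean, at 29.9 ± 15.8 against 16.12 ± 3.70 FPKM (SD, n = 3 each). An exact two-sided permutation test over the 20 arrangements gave p = 0.2, where 3 libraries against 3 cannot go below 0.1.

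The heat-inducible HSP70 gene hsp-70, which HSF-1 also switches on, had the same highest and lowest library. It measured 5.20, 11.6 and 4.79 FPKM in Control and 6.55, 2.38 and 4.36 FPKM in THz libraries, with Control 2 again the highest and THz 2 the lowest. Its limma difference was -0.57 ± 0.39 on the log2 scale (SE, adjusted p = 0.828), with an upper 95% limit of 0.33. The HSP70 genes F44E5.4 and F44E5.5, also induced by heat, were under the filter. F44E5.4 measured 0.374, 0.360 and 0.475 FPKM in Control and 0.323, 0.171 and 0.296 FPKM in THz libraries. F44E5.5 measured 0.768, 0.555 and 1.11 FPKM in Control and 0.894, 0.927 and 0.656 FPKM in THz libraries. For F44E5.4 all THz libraries lay below the Control libraries, on 16, 16 and 22 reads in Control and 13, 7 and 13 in THz libraries. Of the genes tested, which do not include F44E5.4, 7.33% showed that arrangement. For hsp-70 and F44E5.5 the groups overlapped.

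**Figure D3:**
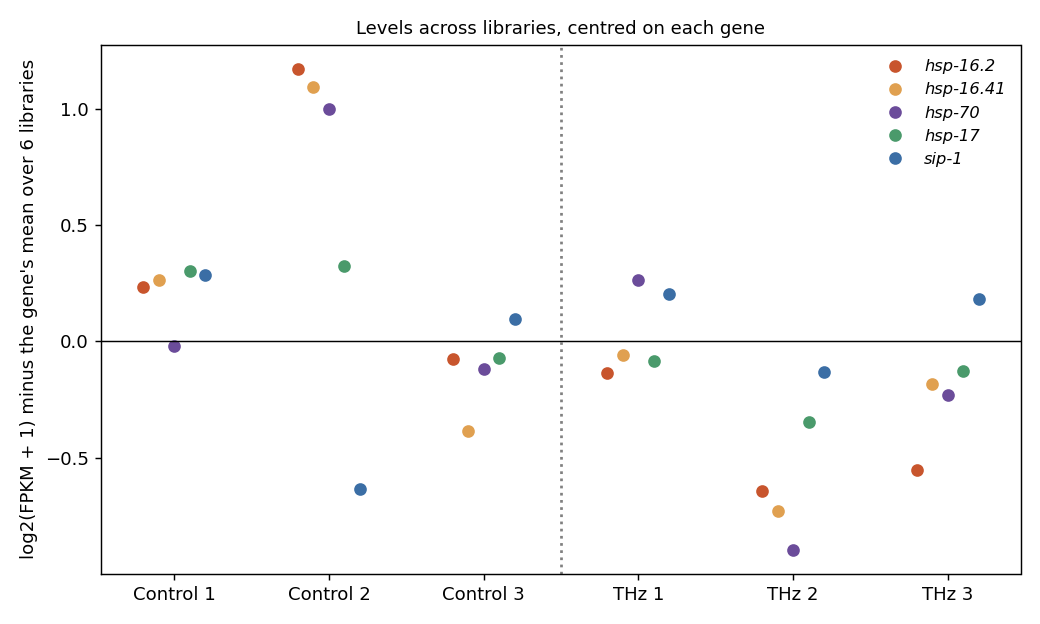
log2(FPKM + 1) of hsp-16.2, hsp-16.41, hsp-70, hsp-17 and sip-1 in each library, minus that gene's mean over the 6 libraries. Control 2 stands at 1.17, 1.09 and 1.00 for hsp-16.2, hsp-16.41 and hsp-70, and at -0.63 for sip-1, while THz 2 is the lowest library for the first 4 genes.

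The Control libraries also differed from each other in genes of development. The FPKM summed over 16 moulting genes, all 16 above 0 in every library, was 495 in Control 1, 104 in Control 2 and 708 in Control 3, so none lay within the 209 to 293 of the THz libraries. Over 20 sperm genes, of which 18 were above 0 in every library, the sum was 162 in Control 1, 212 in Control 2 and 58.6 in Control 3, and 107 to 167 in the THz libraries, which held Control 1 within their range. The sperm genes at 0 in at least 1 library were ssp-9 and ssp-11. The part of stage or germ cell content in the hsp-16 values was not tested. In whole-worm RNA, fewer cells of a type and less RNA per cell cannot be told apart.

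The hsp-12 genes encode short proteins with little beyond the alpha-crystallin domain, and heat is not known to induce hsp-12.3. hsp-12.3 (WBGene00002012, chromosome IV, 9444791 to 9445507) measured 3.999, 2.4998 and 3.49 FPKM in Control libraries (54, 35 and 51 reads). In THz libraries it measured 1.58, 2.24 and 1.16 FPKM (20, 29 and 16 reads). All 3 THz libraries lay below all 3 Control libraries, as in 7.33% of all genes tested, with Control 2 and THz 2 the closest. The means were 3.33 ± 0.762 and 1.66 ± 0.548 FPKM (SD, n = 3 each), and the Control mean was 2.01-fold higher. With limma the difference was -0.71 ± 0.23 on the log2(FPKM + 1) scale (SE, adjusted p = 0.827). Without Control 2 it was -0.85 (limma adjusted p = 0.102).

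hsp-12.6 is a target of the insulin-pathway transcription factor DAF-16 and contributes to long life in worms with low insulin signalling. By the deposited coordinates it lies 877 bases from hsp-12.3 on the same strand (WBGene00002013, chromosome IV, 9446385 to 9446884). It measured 1.48, 0.571 and 2.87 FPKM in Control and 1.73, 0.463 and 1.01 FPKM in THz libraries. These values rest on 10, 4 and 21 reads in Control and 11, 3 and 7 reads in THz libraries. The groups overlapped, and the lowest and highest libraries of the 3 Control libraries were Control 2 and Control 3. The limma difference was -0.30 ± 0.37 on the log2 scale (SE, adjusted p = 0.880), with a 95% interval from -1.17 to 0.57. Without Control 3 it was 0.02, so its direction rested on that library. The table counts hsp-12.6 over 333 bases, while the Ensembl annotation places the gene from 9446229 to 9447228 with untranslated regions at both ends.

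HSP-17, reported to gather unfolding proteins into aggregates as well as to hold them, is encoded by hsp-17 (WBGene00002021, chromosome V, 8384774 to 8386268). It measured 29.8, 30.2 and 22.7 FPKM in Control libraries (491, 516 and 405 reads). In THz libraries it measured 22.6, 18.6 and 21.8 FPKM (349, 294 and 368 reads). All THz libraries lay below the Control libraries, as in 7.33% of all genes tested, but Control 3 and THz 1 lay side by side. The means were 27.6 ± 4.22 and 21.0 ± 2.08 FPKM (SD, n = 3 each), with a limma difference of -0.37 ± 0.14 on the log2 scale (SE, adjusted p = 0.827). Its end overlaps F52E1.14 on the other strand, and a library kit without strand cannot separate reads there. F52E1.14 measured 49.002 to 67.9 FPKM in Control and 52.3 to 58.3 FPKM in THz libraries, so the groups of that gene overlapped.

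SIP-1 is a small heat shock protein of oocytes and embryos that works best in acid conditions. Its gene (WBGene00004798, chromosome III, 10506106 to 10506801) was by far the most abundant of the set, at rank 58 to 141 among all rows of the table in a library. It measured 1441, 761 and 1262 FPKM in Control and 1364, 1078 and 1340 FPKM in THz libraries. The groups overlapped, with Control 2 the lowest and Control 1 the highest. The means were 1155 ± 353 and 1261 ± 159 FPKM (SD, n = 3 each), with a limma difference of 0.17 ± 0.24 on the log2 scale (SE, adjusted p = 0.891). Without Control 2 the sign turned, at -0.11 (limma adjusted p = 0.732). The FPKM summed over 16 oocyte and early embryo genes, all above 0 in every library, ran from 11721 to 12517 in Control and from 12221 to 12589 in THz libraries, and its part in the sip-1 values was not tested.

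Ordered by mean FPKM over the 6 libraries, sip-1 was followed by hsp-17 at 24.3, hsp-16.41 at 12.98, hsp-16.2 at 9.53, hsp-12.3 at 2.49 and hsp-12.6 at 1.35 FPKM. Each of these stood above the next in all 6 libraries, except hsp-12.3 over hsp-12.6, which held in 5. The 4 duplicated hsp-16 genes came last, with means from 0.018 to 0.258 FPKM, and no neighbours among them kept their order in all libraries. sip-1 alone held 63.0% to 79.3% of the FPKM summed over the 18 genes of the alpha-crystallin family, with the lowest share in Control 2.

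The other 8 genes of the alpha-crystallin family gave 5 tested genes, 2 with a log2 difference above 0 and 3 below, and 0 called with limma. With library weights 4 of the 5 were called, with hsp-12.2, hsp-25 and ZK1128.7 lower and Y55F3BR.6 higher. That setting, which rested mostly on Control 1 and THz 3, called 25.4% of all genes tested, 11.7% as lower and 13.7% as higher. hsp-12.2 measured 124, 109 and 99.1 FPKM in Control and 83.2, 85.0 and 84.2 FPKM in THz libraries. All THz libraries of hsp-12.2 lay below the Control libraries, with a limma difference of -0.38 ± 0.09 on the log2 scale (SE, adjusted p = 0.684). Of all genes tested, 7.33% showed that arrangement. hsp-25, whose protein is found in body wall muscle and pharynx, measured 187, 167 and 149.98 FPKM in Control and 142, 145 and 142 FPKM in THz libraries, also without overlap (limma difference -0.22, adjusted p = 0.827). The groups of the other 3 tested genes overlapped. Their means in Control and THz libraries were 46.4 ± 4.56 and 51.9 ± 5.64 FPKM for hsp-43, 10.7 ± 1.89 and 8.10 ± 0.883 FPKM for ZK1128.7, and 24.9 ± 3.92 and 25.0002 ± 0.875 FPKM for Y55F3BR.6 (SD, n = 3 each). Under the filter were hsp-12.1, F08H9.3 and F08H9.4, whose values ran from 0.103 to 0.886, from 0.439 to 0.840 and from 0.113 to 1.43 FPKM over the 6 libraries.

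The pathway around HSF-1 and the major chaperones was described by a list of 20 genes, of which hsf-2 is not analysed here. Of the 17 that passed the filter, limma called 0. The log2 difference was above 0 for 15 of the 17, against 50.5% of all genes tested, and the median was 0.08. All THz libraries lay above the Control libraries for 5 of the 17, namely hsp-90, dnj-12, dnj-13, dnj-19 and daf-41, and below them for 0, where 6.44% and 7.33% of all genes tested showed these arrangements. hsf-1 itself measured 50.1, 47.5 and 59.0 FPKM in Control and 57.4, 58.6 and 58.3 FPKM in THz libraries (limma difference 0.16, adjusted p = 0.828). hsb-1, whose product binds and restrains HSF-1, had means of 149 ± 8.95 and 154 ± 5.76 FPKM (SD, n = 3 each). The groups of both genes overlapped.

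Among the chaperones, the HSP90 gene hsp-90 measured 1016, 1033 and 976 FPKM in Control and 1146, 1056 and 1116 FPKM in THz libraries. All THz libraries of hsp-90 lay above the Control libraries, with a limma difference of 0.13 ± 0.10 (SE, adjusted p = 0.828). The constitutive HSP70 gene hsp-1 had means of 1495 ± 157 and 1640 ± 89.8 FPKM, and hsp-110, which encodes a nucleotide exchange partner of HSP70, had 163 ± 21.0 and 174 ± 5.07 FPKM (SD, n = 3 each). The smallest unadjusted p among pathway genes higher in THz worms belonged to the HSP90 co-chaperone gene daf-41, at 366 ± 29.1 and 411 ± 6.62 FPKM, and to the J-domain gene dnj-13, at 129 ± 5.64 and 140 ± 2.89 FPKM. In the other direction it belonged to hsp-70 and to unc-23, a BAG-domain gene needed for muscle attachment, at 14.7 ± 3.21 and 13.1 ± 1.12 FPKM. The smallest adjusted p of these 4 was 0.827 with limma.

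**Figure D4:**
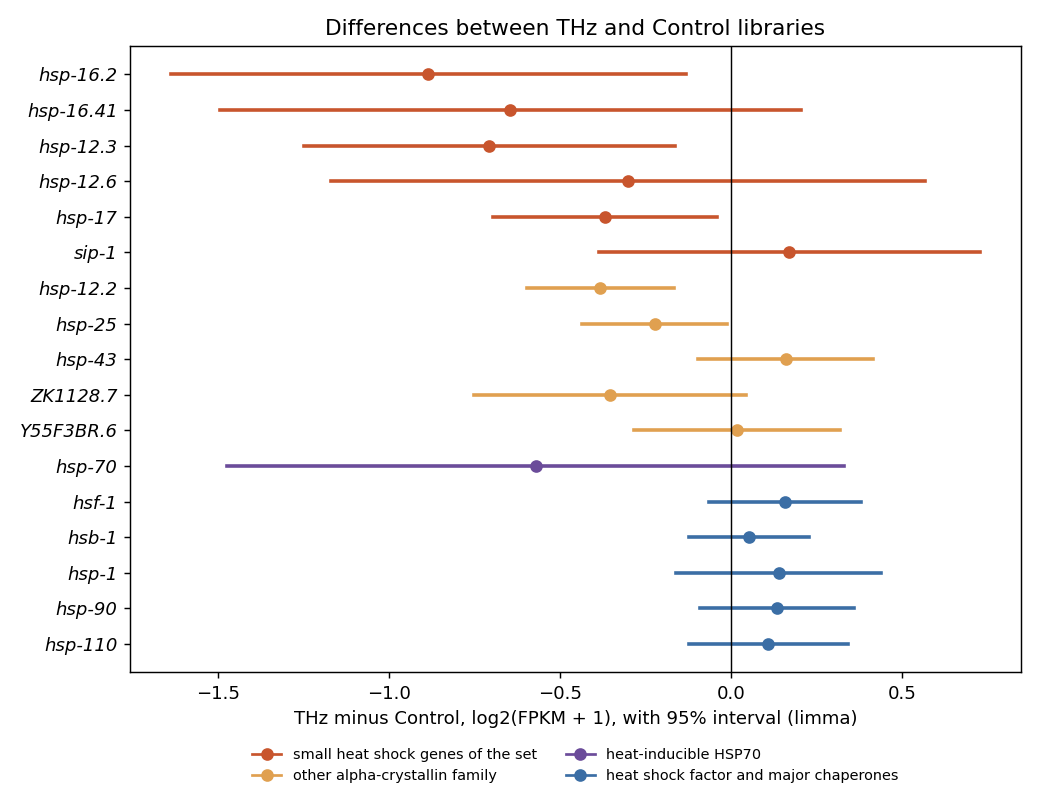
Difference between THz and Control worms on the log2(FPKM + 1) scale (horizontal axis, points) with 95% intervals from limma (bars), for the 6 tested small heat shock genes, the other tested family members, hsp-70, hsf-1, hsb-1 and 3 major chaperones. Intervals of hsp-16.2, hsp-12.3, hsp-17, hsp-12.2 and hsp-25 lie below 0 before adjustment over all genes, and no interval lies above 0.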

How the data were processed

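The values are the FPKM the authors deposited, 1 per gene and library, beside the coordinates, length and name of the gene. Build WBcel235 and the tools STAR, DESeq 1.10.1 and HTSeq 0.5.4 appear in the submitters' processing notes without a stated role. Per the labels' protocols RNA was extracted with TRIzol and libraries were made with the TruSeq RNA v2 kit. FPKM times length is a multiple of 1 step per library, which gave 19079440 to 21977418 reads per library. Within 0.05 reads, 88.7% of all values above 0 and all values of the 10 genes came out whole.

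limma 3.58.1 in R 4.3.3 was fitted with a mean-variance trend to log2(FPKM + 1) of the genes that reached 1 FPKM in 3 or more libraries, with group as the only term. Two-sided p-values were adjusted by Benjamini and Hochberg's method over the 12174 genes tested. Differences on this scale understate those of low genes. Limits for a count of 0 use 3 reads per library and cover counting error only. Strand, exons and overlaps come from the Ensembl annotation of WBcel235, matched by gene identifier. The script was tested on simulated data in which only genes with many reads were changed. That run does not measure power for the members with few reads. Genes named in the text are the 10 members, the lists around them, fixed major chaperones and the 2 pathway genes with the smallest p in each direction. The members and lists were chosen with earlier results of these data known. Alternatives were other pseudocounts, filters, scalings and settings of limma, library weights, voom on recovered reads, a replicate block and leaving out each library.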

Additional observations from a re-analysis of the deposited data

How the results depend on the processing

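Of 100 values for the 6 tested genes under the alternatives, 94 kept their direction and their side of the threshold. Other filters, the other limma moderation settings and the replicate block leave a gene's difference unchanged by construction. Most alternatives also called 0 genes over the whole table, so the 94 do not measure stability. The weights estimated for each library were 4.29, 0.180 and 0.293 for Control 1, 2 and 3. For THz 1, 2 and 3 they were 1.32, 0.935 and 3.59, so that fit rested mostly on Control 1 and THz 3. Its adjusted p-values are to be read with that limit. The weighted fit called 3092 genes (25.4% of 12174), 3 of the 6 tested small heat shock genes, 4 of the 5 other family genes and 4 pathway genes. The 3 were hsp-12.3 (limma difference -1.03, adjusted p = 0.0104), hsp-16.2 (-0.72, adjusted p = 0.0148) and hsp-17 (-0.43, adjusted p = 0.0122), all lower in THz, where 11.7% of all genes were called lower. Over their alternatives the adjusted p of these 3 genes reached 0.999. The family genes were hsp-12.2 (-0.53, adjusted p = 0.00353), hsp-25 (-0.36, adjusted p = 0.00824) and ZK1128.7 (-0.39, adjusted p = 0.0252), and Y55F3BR.6 in the other direction (0.25, adjusted p = 0.0435). The 4 pathway genes, hsf-1, hsp-110, dnj-19 and chn-1, were higher in THz, where 13.7% of all genes were called higher, and were chosen after their values were seen. The sign for sip-1 turned with the weights (-0.10) and without Control 2 (-0.11), and that for hsp-12.6 without Control 3 (0.022). With 1 library left out sip-1 ran from -0.11 to 0.35 and hsp-12.6 from -0.63 to 0.022. Leaving out 1 library at a time called 0 to 237 genes over the whole table, the latter without Control 2, and 0 of the small heat shock and 0 of the pathway genes each time. The log2 ratio of summed hsp-16 FPKM, -0.89, ran from -1.17 without Control 3 to -0.39 without Control 2 when 1 library was left out. The cause of these shifts was not tested.

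With the replicate number as a block limma called 0 genes, and 532 had an unadjusted p under 0.05, against 714 without it. Same-numbered libraries of the 2 groups correlated at -0.01, -0.14 and 0.03 in their deviations from the group means. Differently numbered libraries ran from -0.23 to 0.21. With so few libraries these values cannot show whether same-numbered samples shared a culture or batch. The mean log2 difference of same-numbered libraries in summed hsp-16 FPKM was -0.79, which averages logs where the -0.89 is a ratio of means, and the block itself moves no estimate here. The 0 calls over all genes held with voom, with 695 genes at an unadjusted p under 0.05. The 4 duplicated hsp-16 genes rest on at most 4 reads per library.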

Other observations

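Over the 6 libraries, Pearson's r of log2(FPKM + 1) between hsp-16.2 and hsp-16.41 was 0.94, and with hsp-70 it was 0.90 for hsp-16.2 and 0.92 for hsp-16.41. These values describe 6 libraries in which Control 2 is the highest for all 3 genes, and no test was made. With hsp-17, hsp-16.2 had an r of 0.88 and hsp-16.41 one of 0.90. With hsp-12.3, hsp-16.2 had an r of 0.40 and hsp-16.41 one of 0.16. With hsp-12.6 and with sip-1, both genes had an r below 0.

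Among genes with a mean of at least 5 FPKM, those with the highest r to each tested member over the same 6 libraries are given as a description, since with so few libraries some of the 12174 genes tested come close to any pattern. For hsp-16.2 they were ddo-2, a D-aspartate oxidase gene, and B0228.7, described as a methylthioadenosine phosphorylase gene, with r of 0.996 and 0.991. For hsp-16.41 they were DH11.2 and the pyruvate carboxylase gene pyc-1, with 0.992 and 0.991. For hsp-17 they were C31C9.7 and the innexin gene inx-15, both with 0.986. For hsp-12.3 they were sid-5, a gene of systemic RNA interference, and ttr-6, both with 0.971. For hsp-12.6 they were the cell death nuclease gene crn-6 and the aquaporin gene aqp-1, with 0.985 and 0.980, and for sip-1 the saposin-like gene spp-4 and the meiotic spindle gene mei-1, with 0.998 and 0.997.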
